A study of Mus musculus with 6 samples.

Results

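The microRNA machinery of splenic monocytes was examined through 10 named genes, out of 55421 gene identifiers in the count files. They are the Argonaute genes *Ago1*, *Ago2*, *Ago3* and *Ago4*, the processing genes *Drosha*, *Dgcr8* and *Dicer1*, and the effector genes *Tnrc6a*, *Tnrc6b* and *Tnrc6c*. Monocytes were enriched from the spleens of C57BL/6 mice by depleting other cells with antibodies, and poly(A) RNA libraries were made, 3 from the wild type (IL-4Rα+/+) and 3 from the knockout (IL-4Rα-/-). The knockout lacks the IL-4 receptor alpha chain in all cells, so that IL-4 and IL-13 signals were missing in the whole animal and not in monocytes alone. Neither group is labelled with a treatment or an age, and the study's methods describe adult animals. The 10 genes were chosen by the genotype contrast, in that *Ago3* passed an adjusted p of 0.15 with DESeq2, and the others were added beside it as genes of the same pathway. *Ago3*, at 0.0139, was inside that threshold, and of the 10 genes the nearest outside it was *Ago2*, at 0.358. Their differences between the genotypes are therefore given as a description, without a test.

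MicroRNAs are short RNAs that direct the silencing of messenger RNAs with matching sites. In the nucleus the RNase DROSHA and its partner DGCR8, together called the Microprocessor, cut a hairpin out of the primary transcript, and in the cytoplasm DICER1 trims it to a short duplex. A strand of that duplex is held by an Argonaute protein, which finds the target, and a TNRC6 protein (also called GW182) then brings in the enzymes that shorten the poly(A) tail and remove the cap. In myeloid cells this pathway is known for its part in differentiation and in limiting inflammatory genes.

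The targeted gene *Il4ra* had 137, 128 and 177 CPM in IL-4Rα+/+ replicates 1, 2 and 3 and 27.9, 79.4 and 31.8 CPM in IL-4Rα-/- replicates 1, 2 and 3. CPM are counts scaled to library size in edgeR's usual unit, after TMM normalisation. The genotypes did not overlap, and IL-4Rα-/- replicate 2 had the highest level among the knockouts. Between 26807281 and 29033297 reads per library were counted on genes. Reads that mapped outside annotated exons made up 10.3% to 11.7% of all reads in IL-4Rα+/+ and 8.87% to 9.68% in IL-4Rα-/- libraries, again without overlap. All 16 monocyte markers were detected, with a summed level of 21000 to 25400 CPM in IL-4Rα+/+ and 22500 to 25900 CPM in IL-4Rα-/- libraries, so the labelled cell type was found in both groups. Of these 16 markers, 6 had a higher and 10 a lower fitted level in the knockouts. Markers of some other cells were higher in the knockouts. The 11 erythroid markers measured summed to 60.9 to 130 CPM against 173 to 434 CPM, the 8 red pulp macrophage markers to 2770 to 3330 CPM against 3800 to 5980 CPM, and the 8 eosinophil, basophil and mast cell markers to 10.4 to 31.9 CPM against 43.6 to 73.9 CPM. In IL-4Rα-/- replicate 2, 8 pancreatic enzyme genes summed to 276 CPM, against at most 32.3 CPM in any IL-4Rα+/+ library. The neutrophil markers overlapped, with sums of 57.3 to 254 CPM in IL-4Rα+/+ and 121 to 635 CPM in IL-4Rα-/- libraries, highest in IL-4Rα-/- replicate 2. All 10 of them that were tested had a higher fitted level in the knockouts. The remaining lists of markers overlapped between the genotypes as well. Among all the markers measured *Gp1bb*, a platelet gene, was at 0 in every library. The part of these differences in the results that follow was not tested. In bulk RNA, fewer cells of a type cannot be told apart from less RNA per cell.

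The ranges of both Microprocessor genes overlapped between the genotypes. *Drosha* (ENSMUSG00000022191.16, chromosome 15 of GRCm38 from 12824815 to 12935291, plus strand) had 32.4, 34.8 and 35 CPM in IL-4Rα+/+ replicates 1 to 3 and 34.6, 35.3 and 35 CPM in IL-4Rα-/- replicates 1 to 3. The ranges overlapped and the knockout libraries were nearly identical, with an SD of 0.339 CPM. *Drosha* shares 72 exonic bases with *Gm47288*, a microRNA gene model on its own strand that had 0 counts. The log2 fold change of *Drosha*, IL-4Rα-/- over IL-4Rα+/+ as fitted by edgeR, was 0.04 (SE 0.067). Its partner *Dgcr8* (ENSMUSG00000022718.12, chromosome 16 from 18253948 to 18289246, minus strand), which encodes the RNA-binding subunit, had 30.3, 28.8 and 27.1 CPM in IL-4Rα+/+ and 29.5, 23.7 and 27 CPM in IL-4Rα-/- libraries. The lowest value was that of IL-4Rα-/- replicate 2, and the ranges overlapped, with a log2 fold change of -0.10 (SE 0.103). *Dgcr8* shares 327 exonic bases with a gene model on its own strand and 825 with *Trmt2a* on the other strand, so its reads over those bases are uncertain. *Trmt2a*, a transfer RNA methyltransferase gene, had a mean of 76.0 ± 3.79 CPM in IL-4Rα+/+ and 71.4 ± 2.77 CPM in IL-4Rα-/- libraries (SD, n = 3).

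The *Dgcr8* transcript itself carries hairpins in its exons, and the Microprocessor is known to cut its own *Dgcr8* message there. The mature sequences from RefSeq (GRCm38.p6) are shown because they are the stretch of a member that the pathway itself acts on, 5′ to 3′, with the seed (bases 2 to 8, which pair with targets) in capitals. They lie on the minus strand, miR-3618 at chr16:18284562-18284623 and miR-1306 at chr16:18284248-18284310.
mmu-miR-3618-5p: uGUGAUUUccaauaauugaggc
mmu-miR-3618-3p: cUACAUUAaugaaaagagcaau
mmu-miR-1306-5p: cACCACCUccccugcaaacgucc
mmu-miR-1306-3p: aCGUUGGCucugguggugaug
No seed was shared among these 4. A further hairpin lies in an exon of *Tnrc6b*, with its mature sequence at chr15:80940049-80940071 on the plus strand.
mmu-miR-5113: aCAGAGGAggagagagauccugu
The hairpins' own entries in the count files held 0 reads in every library. The 79, 88 and 82 bases of the miR-1306, miR-3618 and miR-5113 hairpins lie wholly in host exons on the same strand. STAR counts no read that falls on several genes, so these zeros follow from the counting and are not a measurement. Poly(A) libraries do not measure mature microRNAs, so their levels are not known from these data.

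*Dicer1* (ENSMUSG00000041415.10, chromosome 12 from 104687742 to 104751952, minus strand), which makes the final cut, had 105, 106 and 95.2 CPM in IL-4Rα+/+ and 85.2, 84.2 and 88.6 CPM in IL-4Rα-/- libraries. Every knockout library lay below every wild-type library, with a gap of 6.96% of the lowest wild-type value. The mean was 102 ± 5.94 CPM (SD, n = 3) in IL-4Rα+/+ and 86.0 ± 2.30 CPM (SD, n = 3) in IL-4Rα-/-, and the log2 fold change was -0.25 (SE 0.073). Within each library the ratio of *Dicer1* to *Drosha* CPM was 3.24, 3.04 and 2.72 in IL-4Rα+/+ and 2.46, 2.39 and 2.53 in IL-4Rα-/- mice. The ratio was lower in every knockout library than in every wild-type library, and a ratio within a library does not depend on the scaling between libraries. It restates the same contrast, and it keeps any difference tied to transcript length, which was 9851 bases for *Dicer1* and 4570 for *Drosha*.

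Among the Argonautes, *Ago3* (ENSMUSG00000028842.15, chromosome 4 from 126331704 to 126429556, minus strand) differed most. It had 44.2, 44.8 and 40.6 CPM in IL-4Rα+/+ replicates 1 to 3, from 1259, 1237 and 1076 counts, and 30.3, 32.3 and 31.0 CPM in IL-4Rα-/- replicates 1 to 3, from 848, 922 and 917 counts. The highest knockout library was 20.5% below the lowest wild-type library, the widest gap among the 10 genes, and replicates varied little, with a coefficient of variation of 5.21% and 3.27%. The mean went from 43.2 ± 2.25 CPM (SD, n = 3) to 31.2 ± 1.02 CPM (SD, n = 3), a fold of 0.722 and a log2 fold change of -0.47 (SE 0.073). The value that chose it was an adjusted p of 0.0139 with DESeq2, while edgeR's quasi-likelihood test gave an adjusted p of 0.618 (Benjamini-Hochberg). That 0.618 was the smallest adjusted p of edgeR over all 13849 genes tested. Genes with unlike unadjusted p-values share it, so it does not rank them. AGO3 binds microRNAs much as its relatives do.

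*Ago2* (ENSMUSG00000036698.11, chromosome 15 from 73095844 to 73184935, minus strand), which encodes the Argonaute best known for cutting fully matched targets, had 191, 183 and 187 CPM in IL-4Rα+/+ and 144, 154 and 167 CPM in IL-4Rα-/- libraries. The knockouts lay below without overlap, at a log2 fold change of -0.27 (SE 0.080), and spread more widely than the wild types. *Ago1* (ENSMUSG00000041530.16, chromosome 4 from 126435012 to 126468583, minus strand) had 71.6, 67.5 and 59.4 CPM against 59.4, 49.5 and 62.1 CPM. Its ranges overlapped, since IL-4Rα+/+ replicate 3 lay among the knockouts, and the log2 fold change was -0.22 (SE 0.115). *Ago4* (ENSMUSG00000042500.11, chromosome 4 from 126489541 to 126533472, minus strand) had 28.6, 29.2 and 26.1 CPM against 31.8, 23.1 and 34.3 CPM. Here the knockouts fell on both sides of the wild types, with IL-4Rα-/- replicate 2 lowest, and the log2 fold change was 0.09 (SE 0.153). AGO1 and AGO4 are known as Argonautes that silence without cutting.

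*Ago3*, *Ago1* and *Ago4* lie head to tail within 202 kb of chromosome 4, with gaps of 5.46 kb between *Ago3* and *Ago1* and 21 kb between *Ago1* and *Ago4*. The ratio of *Ago3* to *Ago4* CPM was 1.54, 1.53 and 1.55 in IL-4Rα+/+ replicates 1 to 3 and 0.951, 1.40 and 0.905 in IL-4Rα-/- replicates 1 to 3. It was nearly constant in the wild types, and IL-4Rα-/- replicate 2 was the knockout closest to them. *Ago3* over *Ago1* was 0.617, 0.663 and 0.684 against 0.509, 0.653 and 0.499, with overlap through the same knockout library. Few reads could be assigned to the wrong gene among them. Of the windows of 75 bases, the read length, along the longest *Ago3* transcript, 0.619% also occurred in another gene, as did 1.34% for *Ago1* and 0% for *Ago4*, and those of *Ago3* and *Ago1* were shared with each other. *Ago2* overlaps *Chrac1* on the other strand by 219 exonic bases. *Chrac1* had 35.3 ± 2.77 CPM and 37.2 ± 1.83 CPM (SD, n = 3) in the same order of genotypes.

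The 250 bases before the RefSeq start of these 3 genes (GRCm38.p6, minus strand, 5′ to 3′) are shown because these neighbours on the same strand had unlike values. Capitals mark GGGCGG or its reverse complement CCGCCC, the core bound by SP1-type factors, and CCAAT or its reverse complement ATTGG, the core bound by NF-Y. For *Ago1*, RefSeq lists a second start close by, and the window nearest the gene body is printed.
Ago3, chr4:126429543-126429792: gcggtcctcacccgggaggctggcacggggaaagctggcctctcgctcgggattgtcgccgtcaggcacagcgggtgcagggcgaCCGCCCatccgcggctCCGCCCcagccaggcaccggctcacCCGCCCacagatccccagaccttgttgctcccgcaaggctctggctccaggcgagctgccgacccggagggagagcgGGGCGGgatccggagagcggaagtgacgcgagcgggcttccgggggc
Ago1, chr4:126468584-126468833: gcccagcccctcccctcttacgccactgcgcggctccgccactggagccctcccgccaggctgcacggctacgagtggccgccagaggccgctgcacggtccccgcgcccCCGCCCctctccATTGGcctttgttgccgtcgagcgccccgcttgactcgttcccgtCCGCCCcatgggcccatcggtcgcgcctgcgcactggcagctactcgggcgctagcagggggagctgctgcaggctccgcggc
Ago4, chr4:126533459-126533708: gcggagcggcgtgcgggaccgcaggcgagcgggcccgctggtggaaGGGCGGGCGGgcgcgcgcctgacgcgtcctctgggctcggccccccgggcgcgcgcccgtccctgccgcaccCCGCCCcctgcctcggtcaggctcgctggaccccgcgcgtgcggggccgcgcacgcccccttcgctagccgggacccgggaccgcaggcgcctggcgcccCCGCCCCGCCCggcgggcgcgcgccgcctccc
The *Ago3* window held 4 matches to GGGCGG, the *Ago1* window 2 and the *Ago4* window 5, some of them overlapping, and of these windows only that of *Ago1* held CCAAT. All 3 are rich in CG dinucleotides, with 27, 28 and 46 in the order printed, against a median of 6 over all windows of this length. Over 32851 such windows in the RefSeq table, 32.7% held GGGCGG and 33.8% held CCAAT on either strand. STAT6, the factor that IL-4 receptors activate, is known to bind TTC and GAA spaced by 4 bases, and TTCNNNGAA is the closer form used by other STAT factors. The STAT6 form was found in 5.85% of all windows and TTCNNNGAA in 7.02%, and each in 0 of the 11 windows searched, which belong to 9 of the 10 genes. *Ago2* had no window in the table and was not searched. Both patterns read the same on either strand. No match says only that these letters are not in these windows.

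The effector genes had lower means in the knockouts. *Tnrc6a* (ENSMUSG00000052707.8, chromosome 7 from 123123885 to 123195296, plus strand) had 207, 205 and 145 CPM in IL-4Rα+/+ and 151, 124 and 162 CPM in IL-4Rα-/- libraries. IL-4Rα+/+ replicate 3 lay among the knockouts, so the ranges overlapped in spite of a log2 fold change of -0.35 (SE 0.167). This gene sits 2.36 Mb from the targeted *Il4ra* on the same chromosome. *Tnrc6b* (ENSMUSG00000047888.10, chromosome 15 from 80711313 to 80941085, plus strand) had 101, 113 and 89.2 CPM against 79.0, 79.9 and 83.0 CPM, without overlap, at a log2 fold change of -0.32 (SE 0.098). *Tnrc6c* (ENSMUSG00000025571.13, chromosome 11 from 117654289 to 117763439, plus strand) had 79.1, 85.3 and 78.9 CPM against 65.9, 66.0 and 73.4 CPM, also without overlap, at a log2 fold change of -0.25 (SE 0.077). *Tnrc6a* shares 143 exonic bases with *Gm45846*, a noncoding gene on its strand that had 0 counts.

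**Figure D1:**
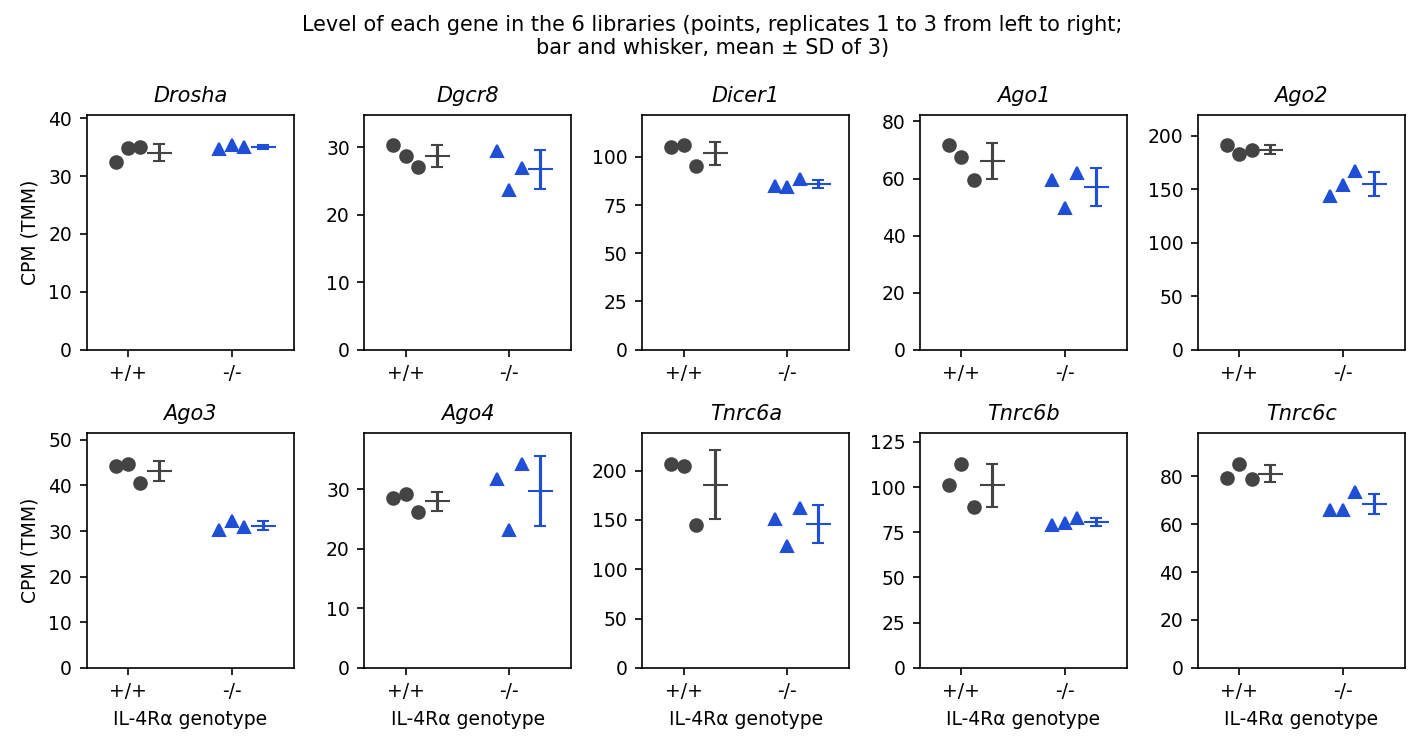
Level of each of the 10 genes in CPM (TMM-scaled, linear axes from 0) in the 3 IL-4Rα+/+ (circles) and 3 IL-4Rα-/- (triangles) libraries, with the mean ± SD of 3 beside the points. The *Ago3* libraries separate at 40.6 against 32.3 CPM, while *Drosha*, *Dgcr8*, *Ago1*, *Ago4* and *Tnrc6a* overlap.

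All 10 genes had enough reads to be tested, from 660 counts for *Ago4* in IL-4Rα-/- replicate 2 upwards. Of them, 8 had a log2 fold change below 0, as had 48.5% of the 13849 genes tested, and the median was -0.25 over the 10 genes and 0.01 over all genes tested. All knockout libraries lay below all wild-type libraries in 5 of the 10 genes (*Ago2*, *Ago3*, *Dicer1*, *Tnrc6b* and *Tnrc6c*) and in 7.87% of all genes tested. With edgeR's quasi-likelihood test and Benjamini-Hochberg adjustment at 0.15, 0 of the 10 genes and 0% of all genes were called. At an unadjusted p under 0.05 those same 5 genes were lower, as were 4.37% of all genes, and 0 were higher, as were 3.72% of all genes. DESeq2 called *Ago3* alone of the 10, and 0.571% of all genes in either direction. Since this contrast chose the genes, nothing is read from these counts. The *Ago3* call with DESeq2 rested on particular libraries. Without IL-4Rα+/+ replicate 2 its adjusted p was 0.234, and without IL-4Rα-/- replicate 1 it was 0.279, both above the threshold of 0.15, while its log2 fold change stayed between -0.51 and -0.45 with any library left out.

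Levels of different genes were compared per length, as CPM divided by the kb of the longest coding transcript. In IL-4Rα+/+ monocytes *Tnrc6a* was highest at 22.7 ± 4.32 CPM per kb (SD, n = 3), followed by *Ago2* at 13.6 ± 0.293 and *Dicer1* at 10.4 ± 0.603 CPM per kb. *Tnrc6c* and *Ago1* came next at 9.17 and 9.16 CPM per kb and did not differ beyond their spread. *Drosha*, at 7.46 ± 0.312 CPM per kb, lay above *Dgcr8* and *Tnrc6b*, at 6.65 ± 0.369 and 5.81 ± 0.675 CPM per kb, whose ranges overlapped. *Ago4* with 4.28 ± 0.248 and *Ago3* with 2.77 ± 0.144 CPM per kb closed the order. With this length, all neighbours other than the overlapping pairs named had separate ranges in the wild type. *Dicer1* and *Ago1*, which are not neighbours, overlapped, at 9.66 CPM per kb for the lowest *Dicer1* and 9.91 for the highest *Ago1* library. The order depended on the length used. Per kb of the union of exons, *Tnrc6a* (16.3, 16.1 and 11.4 CPM per kb in IL-4Rα+/+ replicates 1 to 3) overlapped with *Ago2* (13.6, 13.1 and 13.4 CPM per kb), *Ago1* was at place 3 and *Dicer1* at place 5, and *Ago3* was again last. In IL-4Rα-/- monocytes *Tnrc6a* and *Ago2* again led and *Ago3* was again last, at 2.00 ± 0.0655 CPM per kb. Between them the order was less clear, since *Dicer1*, *Ago1*, *Tnrc6c* and *Drosha* overlapped with their neighbours, as did *Tnrc6b* and *Ago4*.

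**Figure D2:**
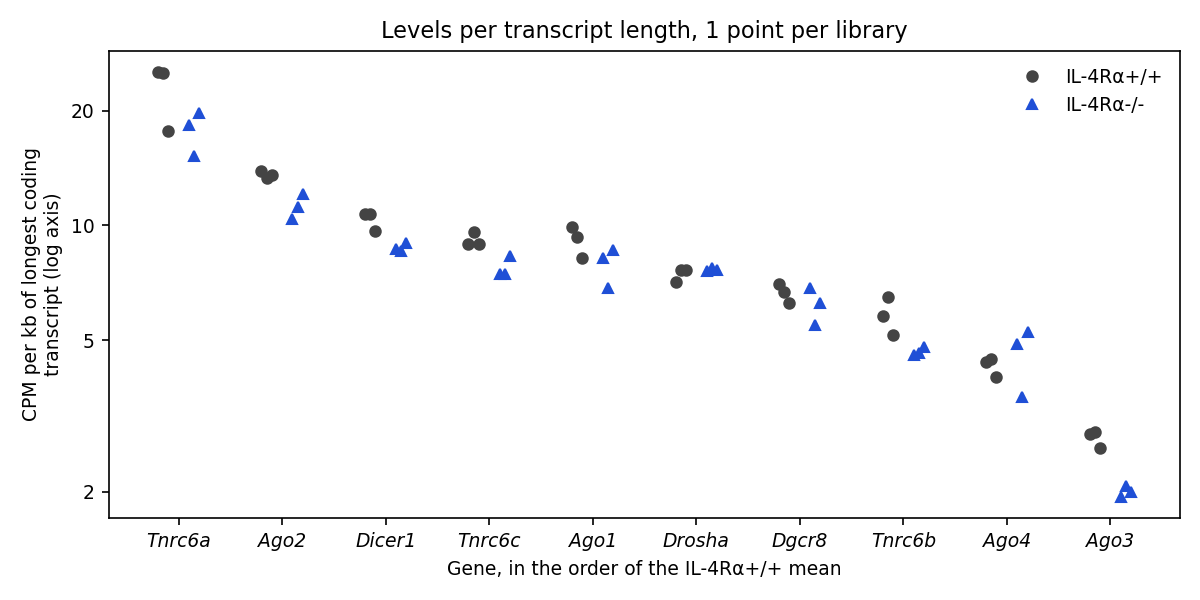
Level of each gene in CPM per kb of its longest coding transcript (log axis), 1 point per library, with genes in the order of the IL-4Rα+/+ mean. *Tnrc6a* leads at a mean of 22.7 CPM per kb in IL-4Rα+/+ and *Ago3* is last in both genotypes, at 2.77 and 2.00 CPM per kb.

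Per length, the Argonaute pool was made mostly of *Ago2* and *Ago1*. Of the summed level of the 4 genes, *Ago2* held 45.6 ± 1.90% (SD, n = 3) in IL-4Rα+/+ and 43.8 ± 3.19% in IL-4Rα-/- mice, and *Ago1* held 30.7 ± 1.58% and 30.7 ± 1.66%. *Ago3* held 9.15%, 9.58% and 9.17% in IL-4Rα+/+ replicates 1 to 3 and 7.63%, 8.77% and 7.12% in IL-4Rα-/- replicates 1 to 3. The share of *Ago3* was lower in each knockout library than in each wild-type library, and nearest to them in IL-4Rα-/- replicate 2. *Ago3* was chosen for its lower level, so its lower share follows in part from the choice. *Ago4* held 14.1%, 14.9% and 14.1% against 19.1%, 15% and 18.8%, higher in each knockout library, though by little in replicate 2. A share also rises when the other genes fall, and the CPM of *Ago4* itself overlapped between the genotypes. The sum itself was 31.0, 30 and 28.4 CPM per kb in IL-4Rα+/+ and 25.5, 23.6 and 27.9 CPM per kb in IL-4Rα-/- libraries, without overlap. The *Ago3* share depends on the length used. With the median coding transcript, which for *Ago3* is a fragment of 682 bases, its share in IL-4Rα+/+ mice would be 65.9% and its place among the 10 genes 2 in place of 10.

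The 10 genes were put together with transcript length in view, and their transcripts are long. The longest coding transcript was 15595 bases for *Ago3*, 13800 for *Ago2*, 7227 for *Ago1* and 6537 for *Ago4*, and 9851 for *Dicer1*, 4570 for *Drosha* and 4320 for *Dgcr8*. The *Tnrc6* genes had 8183, 17332 and 8847 bases for *a*, *b* and *c*. All 10 exceeded the median of 2890 bases over the genes tested, and 0.260% of genes had a longer transcript than *Ago3*. Long transcripts had lower fold changes throughout these libraries. The median log2 fold change was 0.12 for the 1337 genes with transcripts up to 1 kb, 0.08 for 2896 genes from 1 to 2 kb, 0.02 for 5403 genes from 2 to 4 kb, -0.07 for 3559 genes from 4 to 8 kb and -0.19 for 642 genes over 8 kb. Across 13837 genes the Spearman correlation of fold change with length was -0.254, and across the 10 genes it was -0.806. The value over the 10 genes includes *Ago3*, which was chosen for its fold change, and is no support for the trend. Both are correlations across genes of the same 6 libraries, which are not independent replicates. The share of reads outside annotated exons also separated the genotypes, and its part in this trend was not tested.

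The 10 genes were then set beside genes of like length. All 5 genes without overlap are among the 6 over 8 kb, where 32.2% of genes had ranges that did not overlap with the knockouts lower, and 0 are among the 4 genes from 4 to 8 kb, where 13.7% did. *Ago2*, at -0.27, was close to the median of -0.26 over the 125 genes within 0.25 log2 units of its length, and *Tnrc6b*, at -0.32, to the median of -0.30 over 48 such genes. The -0.47 of *Ago3* stands beside a median of -0.27 over 74 genes of like length, of which 9.46% had a lower value. *Ago3* was chosen for this same difference, so its low place among them follows in part from the choice and is only a description. *Tnrc6a*, at -0.35, compares with -0.15 over 764 genes, of which 12.8% were lower. At the other end *Ago4*, at 0.09, was above the median of -0.10 for its length, and 81.0% of its 1334 peers were lower.

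**Figure D3:**
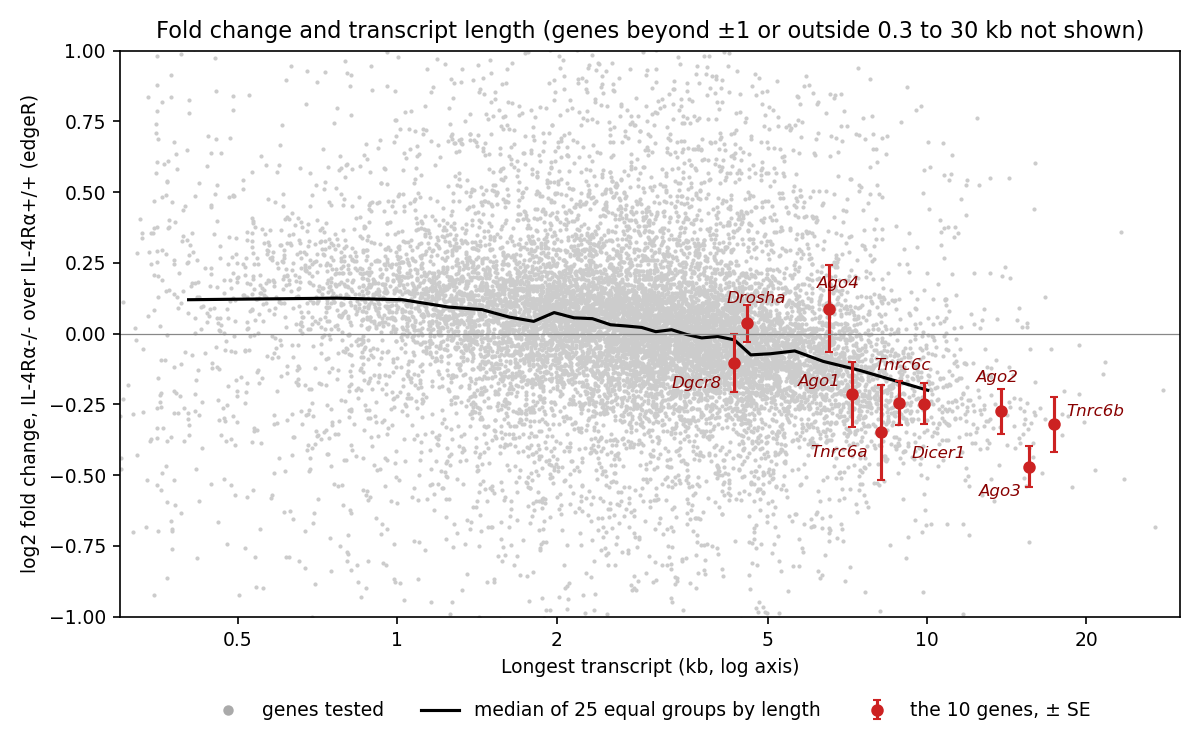
log2 fold change (edgeR, IL-4Rα-/- over IL-4Rα+/+) against the longest transcript in kb (log axis) for the genes tested (grey), with the median of 25 groups of equal size (line) and the 10 genes with their SE (red). The line declines with length and ends near 10 kb, and *Ago3*, at 15595 bases and -0.47, is the lowest of the 10 genes.

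When the trend with length was taken out of each library, the fold changes of the long members moved towards 0 and *Ago3* stayed lowest. Its log2 fold change went from -0.47 to -0.29, that of *Ago2* from -0.27 to -0.12, that of *Tnrc6b* from -0.32 to -0.13 and that of *Dicer1* from -0.25 to -0.12. *Drosha* was at 0.05 and *Ago4* at 0.16 after removal, against 0.04 and 0.09 before. With the trend removed DESeq2 no longer called *Ago3*, at an adjusted p of 0.788 and a log2 fold change of -0.33. When the length was the median coding transcript in place of the longest, the log2 fold change of *Ago3* was -0.55, since its fragment of 682 bases counts as short. Removal of a trend with GC content left it at -0.49.

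**Figure D4:**
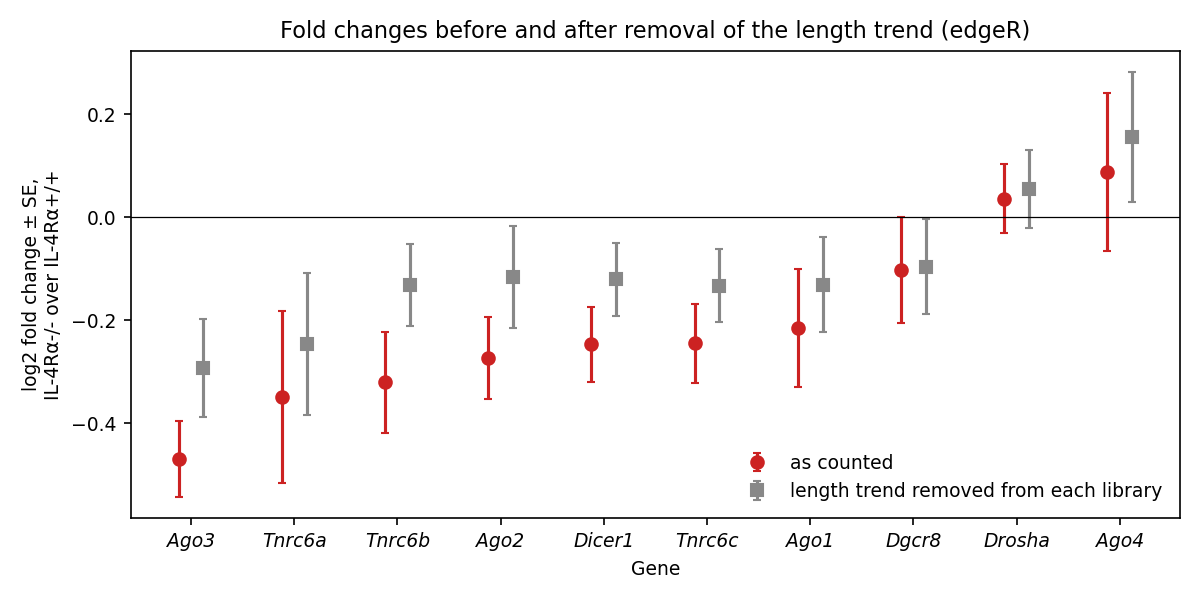
log2 fold change with its SE for each gene, as counted (circles) and after removal of the trend with transcript length from each library (squares), both from edgeR. *Ago3* moves from -0.47 to -0.29 and remains the lowest, while *Drosha* and *Ago4* stay above 0.

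Other genes of the pathway were taken from lists of 100 genes, of which 98 were found in the files and 88 tested. With edgeR's quasi-likelihood test adjusted over all genes, 0 of them were called in either direction, as were 0% of all genes. DESeq2 also called 0 of them, and 0.571% of all genes. With shares this small, 0 calls say little about these lists. At an unadjusted p under 0.05, 6 were lower and 4 were higher, where 8.09% of all genes had such a p in either direction. Of the 88 genes 48 had a log2 fold change below 0, with a median of -0.01.

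Among the partners of the processing steps, 12 of 21 tested were below 0, with a median log2 fold change of -0.01. The smallest unadjusted p-values belonged to *Ran*, *Ddx17* and *Tut4*. *Ran*, the GTPase that powers nuclear export of precursors, had 82.3, 67.4 and 84.8 CPM in IL-4Rα+/+ and 92.4, 104 and 90.7 CPM in IL-4Rα-/- libraries, higher without overlap (log2 fold change 0.29, SE 0.110). *Ddx17*, a helicase of the Microprocessor, had 609, 684 and 554 CPM against 503, 519 and 537 CPM, lower without overlap (-0.24, SE 0.095). *Tut4*, which adds uridines to precursors, had 50.9, 56.4 and 37.0 CPM against 38.3, 31.4 and 42.0 CPM, with overlap. The adjusted p of edgeR was 0.618 for *Ran* and *Ddx17* and 0.626 for *Tut4*. Of the 21 genes, 1 was lower and 1 higher without overlap, as were 7.87% and 7.63% of all genes. *Lin28b*, a blocker of let-7 maturation, had 0 counts in every library, and *Lin28a* had 4 to 24 counts and was not tested.

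Among the chaperones and partners of Argonaute, 7 of 19 tested were below 0, with a median log2 fold change of 0.07. *Fkbp5*, a co-chaperone of HSP90 that glucocorticoids induce, had 132, 133 and 150 CPM in IL-4Rα+/+ and 186, 292 and 157 CPM in IL-4Rα-/- libraries, highest in IL-4Rα-/- replicate 2 (log2 fold change 0.62, SE 0.225). *Wtip* was far lower in level, at 1.34, 1.01 and 1.21 CPM against 2.32, 2.14 and 1.49 CPM (0.74, SE 0.275). *Ddx6*, a helicase that the deadenylase complex engages, had 283, 272 and 275 CPM against 240, 243 and 260 CPM (-0.16, SE 0.069). Each of these 3 had an adjusted p of 0.618 with edgeR and showed no overlap between the genotypes. Of the 19 genes, 1 was lower and 2 were higher without overlap, as were 7.87% and 7.63% of all genes. *Trim71* had 0 counts in every library.

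Deadenylation and decay are the steps that TNRC6 proteins set off. Of the 26 genes listed for them, all tested, 17 were below 0, with a median log2 fold change of -0.09, and in 11 of them, or 42.3%, every knockout library lay below every wild-type library, against 7.87% of all genes. Of those 11, 9 had transcripts over 4 kb, out of 11 such genes in the list, and 2 were among the 15 shorter genes. Among all genes tested, 5.09% from 2 to 4 kb, 13.7% from 4 to 8 kb and 32.2% over 8 kb were lower without overlap. The distance of the list from these shares was not tested. *Cnot1*, the scaffold of the CCR4-NOT deadenylase, had 208, 226 and 214 CPM in IL-4Rα+/+ and 182, 188 and 190 CPM in IL-4Rα-/- libraries (-0.21, SE 0.069). *Pan3*, a subunit of the PAN2-PAN3 deadenylase, had 201, 189 and 185 CPM against 169, 152 and 172 CPM (-0.22, SE 0.079). *Lsm1*, which marks deadenylated messages for decapping, went the other way, from 13.7, 13.5 and 12.4 CPM to 16.6, 16.7 and 17.5 CPM (0.36, SE 0.097). The adjusted p of edgeR was 0.618 for each.

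**Figure D5:**
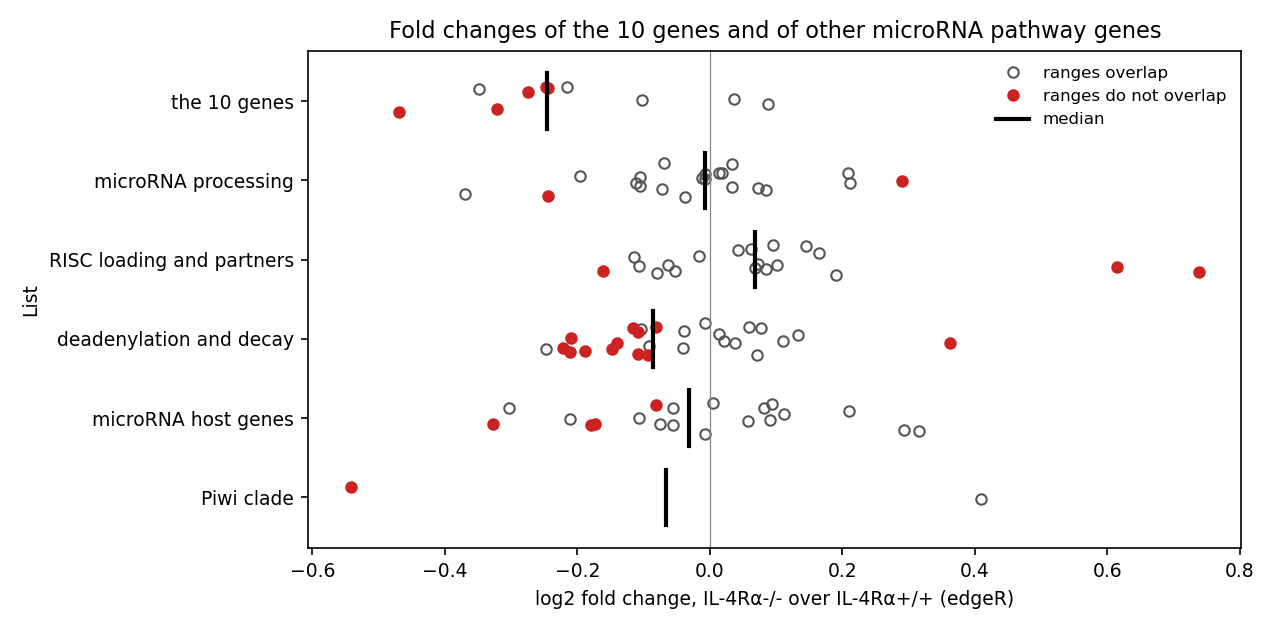
log2 fold change (edgeR) of each tested gene in the 10 genes and in the 5 other lists, with filled points where the CPM ranges of the genotypes do not overlap and a bar at each list's median. The 10 genes have a median of -0.25 and the other lists lie between -0.09 and 0.07.

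The germline relatives of the Argonautes had few reads. *Piwil1* had 1 count in all libraries together, *Piwil4* had 0.668, 0.615 and 0.604 CPM in IL-4Rα+/+ and 0.571, 0.350 and 0.372 CPM in IL-4Rα-/- libraries, and *Piwil2* 0.984, 1.19 and 1.81 CPM against 0.821, 3.26 and 1.22 CPM. PIWI proteins bind the small RNAs that silence transposons in germ cells.

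The last list held genes named as hosts of microRNA hairpins, although for *Dnm2* the annotated hairpin lies on the other strand and is not part of its transcript. Of 27 listed, 25 were found and 20 tested, of which 11 were below 0, with a median log2 fold change of -0.03. The smallest unadjusted p-values belonged to *Huwe1*, *Pank3* and *Ctdsp2*, all lower without overlap. Of the 20 genes tested, 4 (20%) were lower without overlap, against 7.87% of all genes. All 4 were among the 9 with transcripts over 4 kb, and 0 were among the 11 shorter genes. *Huwe1*, a ubiquitin ligase, had 274, 333 and 313 CPM in IL-4Rα+/+ and 228, 254 and 251 CPM in IL-4Rα-/- libraries (-0.33, SE 0.097), and its longest transcript of 14579 bases is close to that of *Ago2*. *Pank3*, a pantothenate kinase, had 86.3, 93.7 and 87.1 CPM against 82.5, 75.8 and 78.5 CPM (-0.17, SE 0.072). *Ctdsp2*, a phosphatase, had 189, 178 and 180 CPM against 169, 143 and 171 CPM (-0.18, SE 0.090). The adjusted p of edgeR was 0.618 for *Huwe1* and *Pank3* and 0.628 for *Ctdsp2*. *Mir155hg*, the host of the inflammatory miR-155, had at most 4 counts per library.

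Of the 8 mature microRNAs that lie in these 3 hosts, 4 are shown, without the opposite arm of each hairpin, with the seed in capitals, from RefSeq (GRCm38.p6, plus strand), since let-7 and miR-103 family members are known repressors of *Dicer1*. The *Huwe1* pair at chrX:151912353-151912374 and chrX:151913229-151913250 shares a seed.
mmu-let-7f-5p: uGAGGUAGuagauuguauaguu
mmu-miR-98-5p: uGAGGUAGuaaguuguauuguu
The other hosts carry unrelated seeds, at chr11:35782447-35782469 in *Pank3* and at chr10:126995543-126995564 in *Ctdsp2*.
mmu-miR-103-3p: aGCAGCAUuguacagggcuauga
mmu-miR-26a-5p: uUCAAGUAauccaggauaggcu
Host transcripts need not track the mature forms, which were not measured.

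The genes whose levels followed *Ago3* most closely were found by Pearson's correlation of log2 CPM over the 6 libraries, given as a description. They were *Prpf38b* (r = 0.997), *Foxo3* (0.995), *Ubn2* (0.993), *Gga3* (0.990) and *Rock1* (0.987). The 6 libraries hold both genotypes, so a gene that differs between them in the same direction ranks high. *Ubn2*, for instance, had 132, 136 and 129 CPM in IL-4Rα+/+ and 97.1, 102 and 101 CPM in IL-4Rα-/- libraries, and its longest transcript has 14644 bases. *Prpf38b*, with a transcript of 3026 bases, had 271, 268 and 259 CPM against 225, 233 and 228 CPM. Among the 10 genes *Dicer1* was closest to *Ago3* (r = 0.955), followed by *Tnrc6b* (0.915), *Ago2* (0.895) and *Tnrc6c* (0.893). Their places among all genes tested were 52, 205, 286 and 299, so many genes outside the 10 followed *Ago3* as closely. *Tnrc6a* (0.701), *Ago1* (0.653) and *Dgcr8* (0.425) followed it less. *Ago4* (-0.227) and *Drosha* (-0.494) did not follow it.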

How the data were processed

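Polyadenylated RNA of splenic monocytes was sequenced as single-end reads of 75 bases. The authors aligned reads to GRCm38 with STAR 2.6.1a and deposited raw counts per gene, counted by STAR on Gencode mV23. Which strand setting was counted is not given in the sources used here. STAR's summary lines were left out of tests.

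Symbols, positions and lengths came from GENCODE M21, which held 55154 of 55421 identifiers. The libraries were grouped by genotype, 3 per group. Genes were kept by filterByExpr (minimum count 10), which left 13849, and were compared in edgeR 4.0.16 (R 4.3.3) by quasi-likelihood after TMM scaling. P-values were adjusted over all genes by Benjamini and Hochberg's method and read at 0.15, the level the study used. DESeq2 1.42.0 was run beside it. Length and GC trends were fitted per library by loess (span 0.5). Where a gene had coding transcripts, the longest was its length, which was chosen after the median was seen to fall on fragments. One count was about 0.0378 CPM in the smallest library. The steps were tested on simulated data. The labels do not say whether libraries of a genotype came from separate animals, so p-values measure the spread between these libraries.

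The 10 genes and the lists were chosen with earlier results of these data known. In each list the 3 genes with the smallest unadjusted p were named, with those called, if any, the Piwi genes and the 5 genes most like *Ago3*. Genes at 0 or low counts in a list were named after their values were seen.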

Additional observations from a re-analysis of the deposited data

How the results depend on the processing

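Over 15 other settings, 8 of the 10 log2 fold changes stayed below 0 in all of them, among them that of *Ago3*, which lay between -0.55 and -0.29. Those of *Ago4* (-0.02 to 0.24) and *Drosha* (-0.01 to 0.07) were below 0 in 1 setting each, and *Ago4* was at 0.24 (SE 0.095) without IL-4Rα-/- replicate 2, against 0.09 with all libraries. The number of members below 0 was 8 to 9 when 1 library was left out.

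edgeR called 0 genes, 0 members and 0 other pathway genes in every setting, leaving out 1 library included (0 to 0). DESeq2 called 80 genes and 1 member, and 22 genes and 0 members with the length trend removed. Without 1 library DESeq2 called 19 to 438 genes and 0 to 3 members, with 19 genes without IL-4Rα+/+ replicate 2, 20 without IL-4Rα-/- replicate 1, 49 without IL-4Rα-/- replicate 2 and 438 without IL-4Rα+/+ replicate 3. These repeats of DESeq2 were chosen after seeing the data, and the cause was not tested. The targeted *Il4ra* itself was not called by edgeR, at a log2 fold change of -1.67 (adjusted p = 0.618). A missing edgeR call therefore does not show that a gene did not differ. For *Il4ra* DESeq2 gave -1.67, called there (adjusted p = 0.0111), and -1.62 with the length trend removed as well (adjusted p = 0.0311). With edgeR its log2 fold change was -2.31 to -1.41 when 1 library was left out.

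The Spearman correlation of fold change with length was -0.444 among 8605 genes above 10 CPM, -0.197 with the median transcript and -0.252 to -0.208 when 1 library was left out. With the median transcript the rank of *Ago3* per length was 2 and its share of the Argonautes 65.9%. When 1 library was left out, the genes below 0 numbered 11 to 14 in processing, 6 to 10 in loading, 16 to 19 in decay, 11 to 14 in hosts and 1 to 2 in the Piwi clade.

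With the replicate number as a block, *Ago3* was at -0.47 and edgeR called 0 genes. The distances of equally numbered libraries from the mean of their genotype correlated at 0.185, -0.271 and -0.296 for replicates 1 to 3. These values had no common sign, and they neither show nor exclude a pairing. Without the block edgeR also called 0 genes, so no call could be lost with it.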
